A study of Papio anubis with 60 samples.

Results

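Across the genome of baboon (Papio anubis) pluripotent cells, 579 clusters of H3K27ac peaks away from wide H3K4me3 domains ranked high in both embryonic stem cells (ESC) and induced pluripotent stem cells (iPSC). The clusters were chosen by measured H3K27ac coverage. On chromosomes 1 to 20, H3K27ac peaks lying over 1 kb from any H3K4me3 domain of at least 2 kb were pooled from both cell types and joined across gaps of at most 5 kb, which gave 137693 clusters. A domain was made by joining the H3K4me3 peaks of both cell types within 1 kb. The 579 are the clusters that stood among the 1000 with the most base pairs under ESC peaks and also among the 1000 with the most under iPSC peaks. A further 421 clusters met the limit in ESC alone and 421 in iPSC alone. They are the clusters most like the 579, and are used below for comparison.

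The ESC were of lines B4 and B15 and the iPSC of lines 160-2 and M14939#3, all kept on feeder cells in a medium for human pluripotent cells. For each cell type, 6 libraries per mark (3 replicates of each of 2 lines) and 6 inputs were made from 50000 cells each, with chromatin cut by micrococcal nuclease. Each cell type had 1 peak list for each mark, so the lines, the replicates and any reads from feeder cells are pooled in a list and no spread between replicates can be given. Each line belongs to 1 cell type, so line and cell type cannot be told apart. On chromosomes 1 to 20 the H3K27ac lists held 376101 peaks in ESC and 213657 in iPSC, and 82.3% and 77.8% of these peaks lay over 1 kb from a domain.

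H3K27ac, acetylation of lysine 27 of histone H3, is laid down by the acetyltransferases p300 and CBP at active promoters and active enhancers. H3K4me3 marks promoters and is weak or absent at most enhancers, which are instead rich in H3K4me1, a mark not measured here. H3K27me3, written by Polycomb complex PRC2 on the same residue that is acetylated, and H3K9me3, a mark of heterochromatin and silenced repeats, go with inactive chromatin. Long clusters of acetylated enhancers, often called super-enhancers or stretch enhancers, are known for lying near genes of cell identity, in pluripotent cells those of the core transcription factors. No gene or sequence is given for the baboon clusters, since the sources used here name no genome build for the peak coordinates.

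The 579 clusters together spanned 21.4 Mb, 0.826% of chromosomes 1 to 20, and held a larger part of the distal H3K27ac. They contained 5.77% of the distal ESC base pairs and 5.64% of those of iPSC. Their span had a median of 34.6 kb and ranged from 7.99 to 184 kb. ESC peaks covered between 4.51 and 64.9 kb of a cluster, with a median of 6.56 kb, and iPSC peaks between 2.30 and 23.9 kb, with a median of 3.36 kb. A cluster held a median of 21 ESC peaks (range 7 to 144) and 12 iPSC peaks (range 5 to 78). These values describe what the rule selected. Over all 137693 clusters the medians were 0.334 kb in ESC, 0.169 kb in iPSC and 1 peak in each list.

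The clusters were patchy, not continuous blocks of acetylation. ESC peaks covered 21.1% of their summed span and iPSC peaks 10.2%, while all H3K27ac peaks together covered 3.95% and 2.10% of chromosomes 1 to 20. Single peaks were short, with median widths of 264 bp in ESC and 233 bp in iPSC, and the median gap between neighbouring peaks was 832 bp and 1580 bp. Over all distal peaks the widths were 208 and 197 bp, and the gaps within clusters 1373 and 1894 bp. Peaks of at least 1 kb made up 2.27% of the ESC peaks (305 peaks) and 0.606% of the iPSC peaks (47 peaks) of the 579 clusters. Among all distal peaks they made up 0.357% and 0.126%. Fold enrichment, as the authors' lists give it for each peak, had a median of 2.88 in ESC and 2.72 in iPSC, close to 2.89 and 2.85 over all distal peaks. Number and width of peaks are what the rule selected on, and fold is not. The strongest peak of a cluster, by its −log10 q, had a median fold of 4.71 in ESC (range 2.95 to 10.3) and 3.96 in iPSC (2.65 to 9.90).

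By ESC coverage a pair of clusters lay apart from the rest, and by iPSC coverage the first of them alone. The cluster at chr3:34618814-34803305 ranked first in both lists, with 64.9 kb under 144 ESC peaks and 23.9 kb under 78 iPSC peaks. The cluster at chr15:3811240-3923097 held 44.8 kb under 94 ESC peaks and 11.1 kb under 41 iPSC peaks. The next by ESC coverage, at chr16:74532766-74604793, held 23465 bp in ESC and 6004 bp in iPSC. Both of the largest were poor in H3K4me3 for their length, with 4.76 kb in ESC and 5.07 kb in iPSC on chromosome 3, and 1.77 and 1.23 kb on chromosome 15. They differed in surroundings: the chromosome 3 cluster lay 74.5 kb from the nearest H3K4me3 domain and the chromosome 15 cluster 1.54 kb. H3K27me3 was not listed in the chromosome 3 cluster in either cell type, and covered 0.392 kb of the chromosome 15 cluster in iPSC alone.

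**Figure D1:**
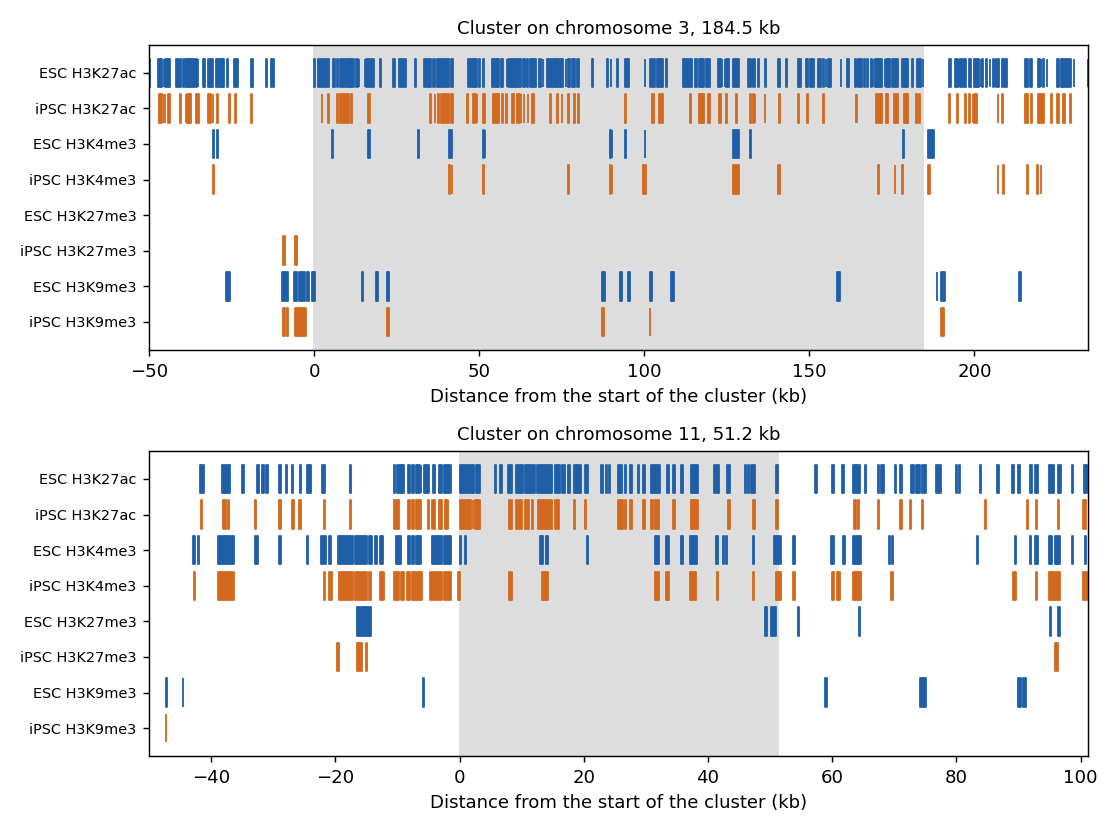
Peaks of the 4 marks in ESC (blue) and iPSC (orange) in the cluster at chr3:34618814-34803305 (top, 184 kb) and the cluster at chr11:83980197-84031437 (bottom, 51.2 kb), shaded grey, with 50 kb on each side; the horizontal axis is the distance from the start of the cluster in kb and each bar is 1 peak. H3K27ac peaks crowd the shaded span in both cell types, while H3K27me3 peaks are missing from the upper cluster and rare in the lower one.

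The other clusters among the 10 with the lowest sum of ESC and iPSC ranks spanned 38.4 to 104 kb. The one at chr11:83980197-84031437 was the most balanced of the 10, with 19.8 kb in ESC and 12.2 kb in iPSC. It shared 96.9% of its iPSC base pairs with ESC peaks, and it had no H3K9me3 in either list and 1.13 kb of H3K27me3 in ESC. On the same chromosome lay the clusters at chr11:82854521-82932706, with 19.6 and 9.77 kb, and at chr11:124390851-124450276, with 20.2 and 7.73 kb. The cluster at chr9:50835906-50890696 held 20.3 kb in ESC and 9.47 kb in iPSC, had neither H3K27me3 nor H3K9me3 in either list, and enclosed an H3K4me3 domain of 2.21 kb. The cluster at chr7:149810163-149913694 held 21.2 and 9.34 kb, spread over 104 kb. In contrast, the one at chr3:43638363-43676788 was compact, with 16.7 and 8.74 kb in 38.4 kb, so that ESC peaks covered 43.5% and iPSC peaks 22.8% of its span. The cluster at chr19:33031353-33095457 held 17.3 and 7.95 kb and also enclosed a domain. The cluster at chr5:8313128-8370418 held 18.6 and 8.23 kb and was the one of the 10 with most H3K9me3, 7.81 kb in ESC and 2.93 kb in iPSC.

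The clusters next to the rank limits differed little from those that missed them. The members with the lowest ESC coverage held 4520, 4510 and 4507 bp, and the clusters that met the iPSC limit and just missed that of ESC held 4504, 4498 and 4493 bp. The members with the lowest iPSC coverage held 2311, 2301 and 2297 bp, against 2282, 2281 and 2278 bp in those that met the ESC limit and just missed that of iPSC. Membership at the edge therefore turned on a few base pairs.

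ESC peaks covered more of nearly every cluster than iPSC peaks did, by a ratio close to that of the lists. Coverage chose the clusters, with rank limits at 4507 bp in ESC and 2293 bp in iPSC, so this ratio describes what the rule selected. The ratio of ESC to iPSC base pairs had a median of 1.96 over the 579 clusters, with quartiles of 1.63 and 2.44, and ranged from 0.943 to 5.69. It was below 1 in 1 cluster, at chr7:156937001-156982231, with 4.83 kb in ESC and 5.13 kb in iPSC. Summed over the clusters the ratio was 2.07, and over all distal clusters 2.02. The next lowest ratios were those of chr1:195689717-195743480, with 6.15 and 5.95 kb, and chr5:39306652-39356113, with 8.79 and 8.48 kb. The highest were those of chr20:1400466-1454151, with 14.7 and 2.59 kb, chr1:5116661-5193798, with 15.1 and 2.92 kb, and chr12:125149455-125218494, with 12.8 and 2.51 kb. These last 3 lay 1.40, 5.12 and 3.07 Mb from a chromosome end, and the 3 with the lowest ratios 5.92, 21.7 and 39.3 Mb. In the clusters of ESC alone the median ratio was 3.76, with none below 1. In those of iPSC alone it was 1.24, with 85 below 1.

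Clusters near chromosome ends had higher ratios than the others. Of the 579 clusters, 114 (19.7%, 95% Wilson interval 16.7 to 23.1) lay within 5 Mb of a chromosome end, against 7.34% of all clusters. Among clusters that met 1 limit alone the shares lay far apart, 44.9% (40.2 to 49.7) for ESC and 5.23% (3.48 to 7.79) for iPSC. The 114 had a median ratio of 2.61 (quartiles 2.11 and 3.15), with median coverage of 8.50 kb in ESC and 3.05 kb in iPSC. The other 465 had a median ratio of 1.86 (1.57 and 2.24), with 6.33 and 3.42 kb. The whole H3K27ac lists moved in the same way: ESC peaks covered 5.95% of the 5 Mb ends and 3.78% of the rest of the chromosomes, and iPSC peaks covered 2.10% of each. For H3K4me3 the ratio of ESC to iPSC coverage was 1.11 at the ends and 0.943 elsewhere. Their part in the ratio of the clusters was not tested.

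**Figure D2:**
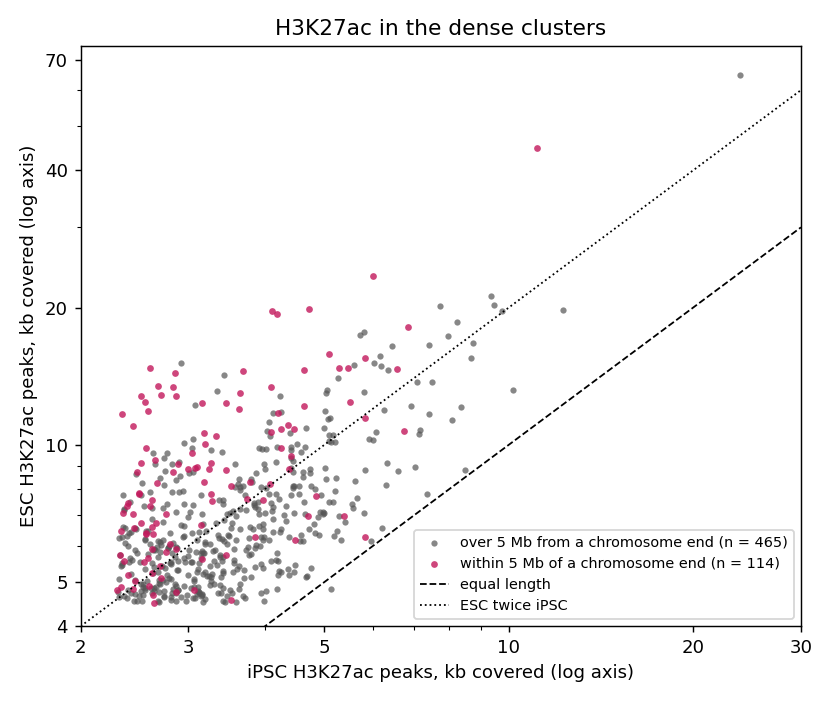
Kilobases under ESC peaks (vertical, log axis) and under iPSC peaks (horizontal, log axis) for each of the 579 clusters, with those within 5 Mb of a chromosome end in magenta (n = 114) and the others in grey (n = 465). Nearly all points lie above the dashed line of equal length, 1 lies below it, and the magenta points reach the highest ratios of ESC to iPSC.

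Within the clusters the iPSC peaks lay mostly on ESC peaks. Of the iPSC base pairs, 83.9% were also under an ESC peak, and of the ESC base pairs, 40.5% were under an iPSC peak. Counted by peaks, 88.6% of 7759 iPSC peaks and 48.8% of 13446 ESC peaks overlapped the other list, against 72.0% and 38.2% of all distal peaks. In the clusters of ESC alone these shares were 91.4% and 28.8%, and in those of iPSC alone 76.9% and 64.5%. The strongest ESC peak of a cluster overlapped an iPSC peak in 536 clusters (92.6%, 90.1 to 94.4), and the strongest iPSC peak overlapped an ESC peak in 570 (98.4%, 97.1 to 99.2). Among the 75393 clusters that met neither limit and had peaks in both lists, the shares were 71.5% and 82.2%. The peak that ranked first in a cluster was the same in both cell types in 223 clusters (38.5%, 34.6 to 42.5), counting peaks that overlapped each other. That share was 39.95% in the clusters of ESC alone, 44.9% in those of iPSC alone and 58.8% in those that met neither limit, which hold fewer peaks. It showed no preference for the centre: 33.5% of the strongest ESC peaks and 32.0% of those of iPSC lay in the middle one of 3 equal parts of the span. Since H3K27ac coverage chose the clusters, these shares are a description of them.

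H3K4me3, which the rule kept out only in domains of at least 2 kb, was present in nearly all clusters as small patches. A peak of it lay in 570 clusters in ESC (98.4%, 97.1 to 99.2) and in 566 in iPSC (97.8%, 96.2 to 98.7). Over all 137693 clusters, with a median span of 0.905 kb, the shares were 48.5% and 47.1%. By base pairs, which do not favour long clusters, H3K4me3 covered 6.26% of the 579 in ESC and 6.88% in iPSC. Its coverage of chromosomes 1 to 20 was 5.20% and 5.42%, and that of the summed span of all clusters 7.94% and 8.16%. A cluster touched a median of 5 patches of H3K4me3, joined within 1 kb, and its widest patch had a median of 1.53 kb. The H3K4me3 peaks had a median fold of 3.27 in ESC and 3.32 in iPSC, below the 3.52 and 3.59 of all H3K4me3 peaks of these chromosomes. Of the H3K4me3 base pairs, 71.7% in ESC and 49.1% in iPSC were also under an H3K27ac peak of the same cell type. H3K27ac covered 21.3% and 10.3% of the span. The shares of H3K4me3 base pairs were 62.9% and 29.1% in the clusters of ESC alone, and 70.8% and 56.8% in those of iPSC alone.

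H3K4me3 covered slightly more of the clusters in iPSC than in ESC, while H3K27ac covered more in ESC, and the ratios of the marks were weakly related across clusters. When the clusters were ordered by their ratio of ESC to iPSC H3K27ac and divided into 3 equal groups of 193, the ratio of ESC to iPSC H3K4me3 base pairs was 0.818 in the group with the lowest H3K27ac ratio, 0.926 in the middle group and 1.02 in the highest. Over the 563 clusters with H3K4me3 in both lists, Spearman's rho between the ratios was 0.277. Clusters share their 4 lists, so this is a description of the lists. Members near chromosome ends held less H3K4me3, 4.93% in ESC and 4.64% in iPSC, than the others, 6.59% and 7.45%.

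H3K27me3 was sparse inside the clusters. A peak of it lay in 65 clusters in ESC (11.2%, 8.91 to 14.1) and in 198 in iPSC (34.2%, 30.4 to 38.2), against 3.28% and 8.24% of all clusters, which are far shorter. By base pairs the order turned: H3K27me3 covered 0.156% of the 579 in ESC and 0.620% in iPSC. It covered 0.394% and 1.24% of the summed span of all clusters and 2.08% and 3.47% of chromosomes 1 to 20. Of the little H3K27me3 found inside, 40.5% of the ESC base pairs and 10.7% of the iPSC base pairs lay under H3K27ac peaks of the same cell type, which covered 21.3% and 10.3% of the span. In 352 clusters neither cell type had a peak of it, and in 36 both had. The iPSC list was the longer one, with 131632 peaks on these chromosomes against 51150 in ESC, and list length and cell type cannot be told apart.

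Clusters that met the limit in ESC alone held more H3K27me3 in iPSC. It covered 2.09% of their base pairs in iPSC and 0.378% in ESC. A few clusters carried much of this, with a median coverage of 0 and a highest of 76.9% in iPSC. Those that met the limit in iPSC alone had 0.728% in iPSC and 0.185% in ESC. By base pairs the clusters dense in both cell types had the lowest value of the 3 classes in both lists, by a small margin over the clusters of iPSC alone. By the share of clusters with a peak they did not: in iPSC it was 34.2%, against 31.1% for ESC alone and 29.9% for iPSC alone, and in ESC 11.2%, against 18.5% and 7.84%. Cluster length also differed between the classes, and its part was not tested. No test of these differences could be made with 1 list per group.

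H3K9me3 was found in more clusters than H3K27me3, and also at low coverage. It had a peak in 393 clusters in ESC (67.9%, 64.0 to 71.6) and in 265 in iPSC (45.8%, 41.8 to 49.8), against 23.9% and 15.5% of all clusters. It covered 2.75% of the base pairs of the 579 in ESC and 1.37% in iPSC. The summed span of all clusters had 4.51% and 2.96%, and chromosomes 1 to 20 8.46% and 6.96%. By base pairs both values were below those of the other high-ranking clusters: those of ESC alone had 3.34% and 2.505%, and those of iPSC alone 3.18% and 2.10%. By the share of clusters with a peak the order differed, with 63.4% for ESC alone and 58.2% for iPSC alone in ESC, both below the 67.9% of the 579, and 37.1% and 48.5% in iPSC, on either side of their 45.8%. Within the 579, H3K9me3 lay under H3K27ac peaks a little less than the span did. The shares of its base pairs were 16.9% in ESC and 8.24% in iPSC, and those of the span 21.3% and 10.3%. In the clusters of ESC alone the order was the same, with 15.9% and 3.34% against 21.6% and 5.53%. In those of iPSC alone it turned, with 18.2% and 15.4% against 15.4% and 12.4%. In 150 of the 579 clusters neither list held H3K27me3 or H3K9me3, a count that was made for the 579 only.

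**Figure D3:**
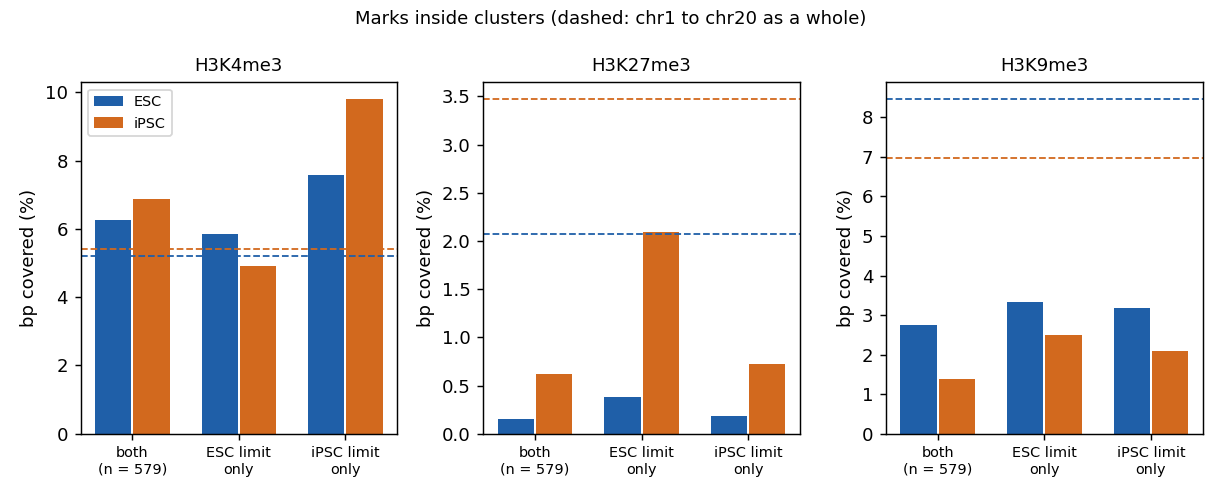
Percent of base pairs covered by H3K4me3, H3K27me3 and H3K9me3 in ESC (blue) and iPSC (orange) within the 579 clusters dense in both cell types and the clusters that met the limit in 1 cell type alone (421 each); dashed lines give the coverage of chromosomes 1 to 20. H3K27me3 and H3K9me3 lie below the dashed lines in each class, and the tallest H3K27me3 bar, 2.09%, is that of iPSC in the clusters of ESC alone.

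A few of the 579 clusters carried much H3K27me3 or H3K9me3, the marks of inactive chromatin. All but 150 held a peak of at least 1 of them in at least 1 list. Such a count favours long clusters and was made for the 579 only. H3K9me3 covered at least 10% of the span in 22 clusters in ESC and 6 in iPSC. H3K27me3 did so in 1 cluster in each. The cluster at chr3:152910437-152942848 ranked first for both inactive marks summed over the lists. H3K27ac covered 5.79 kb of it in ESC and 2.47 kb in iPSC, H3K9me3 7.46 and 5.79 kb, and H3K27me3 4.50 kb in iPSC and none in ESC. The next by H3K27me3 both lay on chromosome 15, at chr15:2102583-2131133, with 2889 bp in ESC and 1099 bp in iPSC, and chr15:4644754-4685223, with 1240 and 2388 bp. The next by H3K9me3 were chr3:50681766-50743256, with 6.41 and 5.99 kb, and chr13:9848029-9952260, with 6.73 and 4.88 kb. Both had H3K27me3 in iPSC, 2.23 and 3.34 kb, and none in ESC. Peak lists of pooled cells cannot show whether the marks lay on the same chromosome copies or in different cells.

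Compared with the 50 kb on each side, the inside of the clusters was richer in H3K27ac and poorer in the other marks. Mean H3K27ac coverage per cluster was 22.7% inside and 11.2% in the flanks in ESC, and 11.4% and 5.66% in iPSC. The flanks themselves thus held more H3K27ac than chromosomes 1 to 20 as a whole (3.95% and 2.10%). The contrast in H3K27ac describes what the rule selected, since clusters were chosen by H3K27ac coverage. Joining also left no distal H3K27ac peak within 5 kb outside an edge. H3K27me3 fell from 1.93% in the flanks to 0.181% inside in ESC and from 2.56% to 0.608% in iPSC, and H3K9me3 from 5.69% to 2.59% and from 3.77% to 1.29%. Both marks fell in the other classes too. In the clusters of ESC alone H3K27me3 went from 3.92% to 0.406% in ESC and from 5.77% to 2.10% in iPSC. H3K9me3 there went from 7.34% to 3.18% and from 5.53% to 2.46%. In those of iPSC alone H3K27me3 went from 1.11% to 0.262% and from 1.98% to 0.816%. Their H3K9me3 went from 5.67% to 3.18% and from 4.13% to 2.14%. H3K9me3 was lower inside in 459 of 579 clusters in ESC and in 461 in iPSC, and H3K27me3 in 383 and 473, with 169 and 38 clusters equal. The flanks together are longer than most clusters, so a sparse mark is more often missing inside, and these counts lean that way. In the clusters of ESC alone H3K9me3 was lower inside in 345 and 350 of 421, and in those of iPSC alone in 320 and 312. For H3K27me3 the counts were 340 and 364, and 202 and 327. H3K4me3 was also lower inside the 579, at 6.89% against 10.03% in ESC and 7.50% against 10.5% in iPSC. In the clusters of ESC alone it was lower too, at 6.05% against 10.4% and 5.10% against 10.1%. In those of iPSC alone it was higher inside, at 8.49% against 7.81% and 10.7% against 9.10%. The rule kept domains out of all but 22 of the 579 clusters and put no such limit on the flanks. The change in H3K9me3 came at the edge: in the 5 kb just outside, its coverage was 6.84% in ESC and 4.40% in iPSC, and in the outermost of 20 equal parts of the span, averaged over both ends, 2.69% and 1.47%. H3K27ac has its own maximum in that outermost part, 31.9% and 15.6%, since by the joining rule a cluster begins and ends with a peak.

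**Figure D4:**
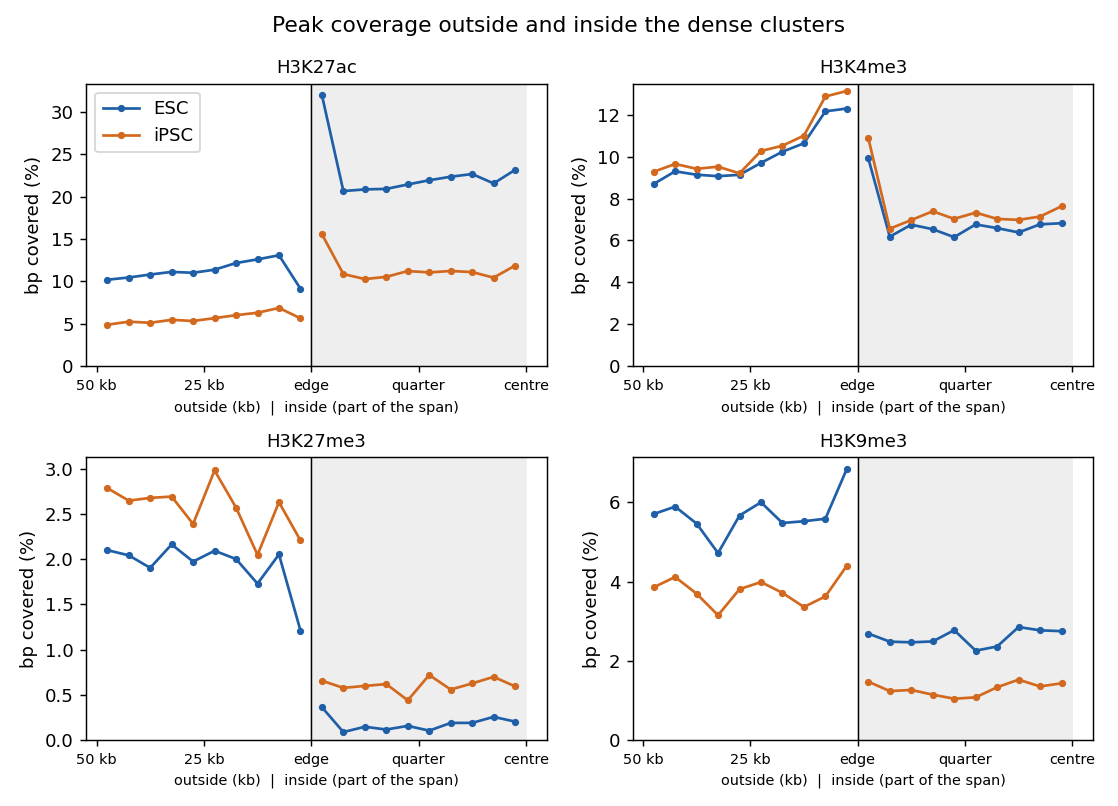
Mean percent of base pairs covered by each mark in ESC (blue) and iPSC (orange), from 50 kb outside the 579 clusters to their edge in bins of 5 kb (left, white) and from the edge to the centre in 10 equal parts of the span (right, grey), with both sides averaged. H3K27me3 and H3K9me3 drop at the edge, for H3K9me3 from 6.84% to 2.69% in ESC, and H3K4me3 is highest in the last 10 kb outside.

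Although chosen over 1 kb away from H3K4me3 domains, many of the clusters had one within 5 kb, and how many depended on the joining distance. The nearest of 30730 domains lay within 5 kb of 362 clusters (62.5%, 58.5 to 66.4), against 16.7% of all clusters. With peaks joined within 2.5 kb the share was 46.5%, and at 2.5 times the 5 kb used it was 91.0%. A domain lay within 50 kb of 546 (94.3%, 92.1 to 95.9), against 59.9%. The median distance was 2.83 kb, and 34.2 kb over all clusters. In 95 clusters (16.4%) a domain lay within 5 kb on both sides, against 2.12% of all clusters. That share was 10.9% for the clusters of ESC alone and 11.4% for those of iPSC alone. A domain was enclosed by 22 of the 579, 8 of the 421 of ESC alone, 6 of the 421 of iPSC alone and 200 of all 137693. The share with any domain within 5 kb was 55.8% (51.0 to 60.5) for the clusters of ESC alone and 48.5% (43.7 to 53.2) for those of iPSC alone. These were also shorter, with median spans of 25.9 and 21.2 kb, and the part of length in the shares was not tested. H3K4me3 rose towards the clusters from outside, from 8.69% at 45 to 50 kb to 12.3% in the last 5 kb in ESC and from 9.28% to 13.1% in iPSC. The rule takes out H3K27ac peaks in and within 1 kb of a domain, so a run of peaks can end beside one. The part of this in the distances and in the rise was not tested. At the other extreme, 217 clusters lay over 5 kb from a domain, at a median of 19.8 kb. The most remote, at chr4:59206665-59255484, lay 430 kb away, with ESC peaks over 5.58 kb and iPSC peaks over 2.42 kb. These 217 resembled those that bordered a domain in span (medians 35.4 and 34.3 kb). H3K27me3 coverage was low in both sets (0.123% and 0.177% in ESC, 0.569% and 0.653% in iPSC). The 217 held less H3K4me3, 5.52% against 6.73% in ESC and 6.27% against 7.27% in iPSC. Median H3K27ac was 6.165 against 7.034 kb in ESC and 3.19 against 3.42 kb in iPSC. More of the 217 had an H3K9me3 peak, 74.2% against 64.1% in ESC and 49.3% against 43.6% in iPSC.

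The domains next to the clusters had a higher share with H3K27ac, and lower shares with H3K27me3 and H3K9me3, than all domains. Within 5 kb of the 579 clusters lay 459 domains, with a median width of 3.03 kb, as for all domains. H3K27ac overlapped 93.9% of them in ESC (91.3 to 95.7) and 86.1% in iPSC (82.6 to 88.9), against 78.9% and 66.4% of all 30730 domains. H3K27me3 overlapped 25.5% (21.7 to 29.7) and 23.7% (20.1 to 27.8), against 40.3% and 46.5%, and H3K9me3 12.9% (10.1 to 16.2) and 12.4% (9.71 to 15.8), against 28.6% and 25.4%. H3K27ac in both lists with H3K27me3 in neither was found at 278 of the 459 (60.6%, 56.0 to 64.9), against 33.5% of all domains. The share was 46.5% (40.8 to 52.3) for 284 domains next to clusters of ESC alone and 64.1% (58.0 to 69.8) for 251 next to those of iPSC alone. H3K27me3 was thus present in ESC at 117 of the 459 domains that bordered a dense cluster.

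The clusters were unevenly spread over the chromosomes. Their density was 0.223 per Mb in all and ranged from 0.0855 per Mb on chromosome 8 (12 clusters) to 0.613 on chromosome 10 (56 clusters). Chromosomes 10, 20, 16, 19 and 15 were the densest and held 202 of the 579 clusters (34.9%) on 15.3% of the length. In that order these chromosomes held 4849, 3645, 3682, 2023 and 5718 of all 137693 clusters. They held 49, 34, 38, 31 and 22 of the 421 clusters of ESC alone, and 23, 12, 17, 4 and 22 of the 421 of iPSC alone. The clusters of ESC alone were thus also crowded there, and those of iPSC alone much less so. The density of the 579 went with that of H3K4me3 domains, with a Spearman's rho of 0.794 and a Pearson's r of 0.747 over 20 chromosomes, which share the same lists. Chromosome 3, with 0.292 clusters per Mb at 10.2 domains per Mb, and chromosome 14, with 0.153 at 13.9, departed from that order.

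**Figure D5:**
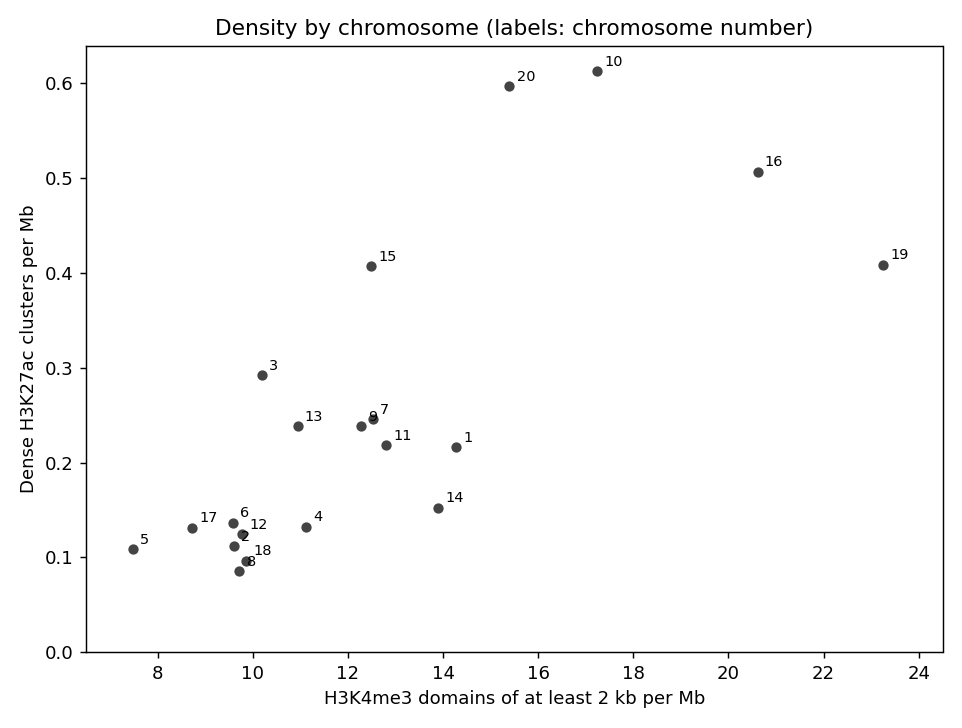
Dense H3K27ac clusters per Mb (vertical) against H3K4me3 domains of at least 2 kb per Mb (horizontal) for chromosomes 1 to 20, each point labelled with its chromosome number. Chromosomes 10, 20 and 16 lie highest, at 0.507 to 0.613 clusters per Mb, and chromosome 8 lowest, at 0.0855.

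Many clusters had another one nearby. Of 559 gaps between neighbours on the same chromosome, 117 were at most 100 kb, and 215 clusters (37.1%) fell into 98 groups of at least 2 so linked. The clusters of ESC alone did so in 30.9% and those of iPSC alone in 16.2%. By the median gap the clusters of ESC alone lay closer together, at 0.530 Mb against 1.19 Mb for the 579 and 3.16 Mb for iPSC alone. These classes hold 421 clusters each, and the part of number in the shares was not tested. An H3K4me3 domain lay in 87 of the 117 short gaps, where the rule had taken out the H3K27ac peaks in and beside it. The largest groups had 4 clusters each. One spanned 237 kb at chr11:124305989-124542736, with 56.2 kb under ESC peaks and 21.7 kb under iPSC peaks, and the other 266 kb at chr16:1691386-1957501, with 24.7 and 12.8 kb.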

How the data were processed

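Chromatin immunoprecipitation of 4 histone marks in 2 baboon pluripotent cell types was read from 8 peak lists, 1 for each mark of each cell type. The submitters' processing notes name MACS2, deepTools, Picard and SAMtools 1.10. The sources used here give no aligner, genome build or calling threshold and do not say how libraries were combined. Each deposited list gives a fold enrichment (a ratio) per peak and the −log10 of its q, both the authors' values. They served only to describe or filter peaks within a list, and the lists' columns of −log10 p (8) and score (8) were not used. Depth is unknown, since no read counts were used.

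Peaks were joined and overlaps counted with numpy 2.4.6 under Python 3.11.15, by functions checked on simulated intervals. Chromosome ends were taken as the furthest peak end of any list. Shares carry 95% Wilson intervals (scipy 1.17.1), which cover counting error only. Neighbouring clusters are not independent, and with 1 list per group no p-value was computed. The named clusters are the 10 with the lowest rank sums, the 3 with the highest and the 3 with the lowest ESC to iPSC ratio, the 3 with most H3K27me3, the 3 with most H3K9me3, and those next to each rank limit. The gene table at hand describes Panubis1.0, and for 12 of 20 chromosomes the last gene and the last peak ended over 5 Mb apart, so the planned naming of nearby genes and the planned check of pluripotency genes were not run. The members, measures and comparisons were chosen with earlier results of these data known.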

Additional observations from a re-analysis of the deposited data

How the results depend on the processing

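Which clusters are members depended on the settings more than their number did. Joining within 2.5 kb (the shorter distance) gave 508, joining at 2.5 times the 5 kb used (the longer distance) 701, H3K27ac peaks with a −log10 q of at least 5 gave 483, cutting the ESC list by −log10 q to the length of the iPSC list 597, a distance of over 2.5 kb from domains 585, and ranking by number of peaks 571. Clusters so obtained overlapped 52.8%, 68.7%, 58.4%, 75.3%, 92.9% and 79.8% of the 579. A rank limit of 500 gave 277.

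Shares of clusters with a peak moved with most settings, the joining distance among them, which sets cluster length. For ESC H3K27me3, iPSC H3K27me3, ESC H3K9me3 and iPSC H3K9me3 in this order, they were 5.18%, 17.8%, 58.7% and 34.9% with peaks of these marks at a −log10 q of at least 2, and 0.173%, 0.173%, 3.8% and 1.04% where 10% of the cluster had to be covered. They were 7.68%, 13.98%, 32.7% and 16.5% with the shorter joining distance, 53.1%, 90.0%, 98.1% and 94.0% with the longer, and 8.70%, 23.4%, 50.9% and 32.1% with H3K27ac peaks at a −log10 q of at least 5. With the ESC list cut, 26.5% had iPSC H3K27me3, 54.9% ESC H3K9me3 and 34.7% iPSC H3K9me3. Ranking by number of peaks gave 49.9% for iPSC H3K9me3. Among the members over 5 kb from a domain, chosen after seeing the data, 74.2% had ESC H3K9me3. Coverage by base pairs moved less: over these choices of clusters it was 0.123% to 0.512% and 0.495% to 1.26% for H3K27me3 in ESC and iPSC, and 1.66% to 4.41% and 0.782% to 2.88% for H3K9me3, below the level of chromosomes 1 to 20 in each case.

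For H3K4me3 the shares were 92.1% in ESC and 94.1% in iPSC with the shorter joining distance and 100% in both with the longer. In ESC they were 96.9% with H3K4me3 peaks at a −log10 q of at least 5, 99.3% with the rank limit of 500 and 96.8% over 5 kb from a domain, and in iPSC 99.0% with H3K27ac peaks at a −log10 q of at least 5. The share with a domain within 5 kb was 53.5% for domains of peaks with a −log10 q of at least 5, 46.5% and 91.0% with the shorter and the longer joining distance, 52.0% with H3K27ac peaks at a −log10 q of at least 5, 53.4% with the ESC list cut, 54.7% over 2.5 kb from domains and 69.3% with the rank limit of 500. The cause of the other shifts was not tested. No library could be left out and no paired analysis was possible because each list pools its libraries. Depth is unknown, so a region without a peak is one in which none was called.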

Other observations

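The rule left out the X chromosome and the unplaced sequences. Under the same limits in base pairs, 1 of 2605 clusters of the X was dense in both cell types, at chrX:13973016-14006151, with 7.43 kb under ESC peaks and 3.10 kb under iPSC peaks in a span of 33.1 kb. On the X 3 clusters passed the ESC limit and 5 the iPSC limit. Among 4458 clusters on unplaced sequences, 11 passed both limits, 18 the ESC limit and 22 the iPSC limit.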
